A study of Mus musculus with 14 samples.

Results

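The comparison described here set mouse liver tumours whose driver plasmid carried strong foreign antigens against liver tumours whose driver plasmid did not, both with an empty plasmid beside it. The LucOS vector group held 3 tumours and the Luc vector group held 4 tumours, so 7 of the 14 tumours in the series entered the comparison. They were chosen by their labels and by the matching columns of the expression and receptor tables, not by any measured value. All 14 tumours were hepatocellular carcinomas of C57BL/6 mice, raised by hydrodynamic tail-vein injection of plasmids. The mix included SB100, the transposase of the Sleeping Beauty system, by which plasmid cassettes enter hepatocyte DNA. In LucOS tumours the MYC and luciferase cassette also encoded the OVA, SIN and SIY antigens, and in Luc tumours it did not. That empty plasmid was pKT2/CLP-Vec. The other 7 tumours, 3 LucOS Aoah and 4 Luc Aoah, carried a plasmid for Aoah, the lipopolysaccharide-inactivating enzyme acyloxyacyl hydrolase, in place of the empty one, and served for a second look at the same antigen contrast. A plasmid for truncated beta-catenin is also listed, with no statement of the tumours it went into, and an anti-PD1 antibody protocol is given with no statement that it was applied here. Whether numbered tumours are separate animals is not stated, and the p-values below therefore cover no more than the spread between these samples.

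Foreign protein made inside a tumour cell is cut by the proteasome, and its peptides are carried to the surface on MHC class I molecules, where CD8 T cells can recognise them. OVA and SIY contain peptides that C57BL/6 mice present on the class I molecule encoded by H2-K1. T cells that recognise antigen release interferon gamma, which induces the immunoproteasome, the class I and class II presentation genes and the guanylate-binding proteins. Type I interferon induces an overlapping set of antiviral genes, many of them through interferon-stimulated response elements near the start of the gene.

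Promoters of 5 interferon and antigen processing genes are printed as examples of where the letters of such an element lie. They were picked by hand from the genes reported below, so they do not give the share of genes with a match. The sequences are the 250 bases before the transcription start, from RefSeq on build GRCm38.p6, 5′ to 3′ on the gene's own strand. The capitals mark every match, on either strand, to the letters GAAANNGAAA, with overlapping matches joined. Gbp3 and Tgtp2 encode interferon-induced GTPases, and Psmb9 encodes a subunit of the immunoproteasome. In all 3 the LucOS vector tumours lay above the Luc vector tumours. Isg15 encodes a ubiquitin-like antiviral protein and Ifit1 an RNA-binding antiviral protein, and in both the groups overlapped because LucOS vector 1 was as low as the Luc vector tumours.
Gbp3, upstream start, chr3:142559794-142560043, + strand: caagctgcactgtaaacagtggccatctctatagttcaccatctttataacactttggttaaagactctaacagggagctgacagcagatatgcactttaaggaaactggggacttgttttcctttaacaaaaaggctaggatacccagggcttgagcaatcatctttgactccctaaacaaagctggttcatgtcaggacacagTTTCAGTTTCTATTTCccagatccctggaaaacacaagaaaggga
Tgtp2, chr11:49064213-49064462, - strand: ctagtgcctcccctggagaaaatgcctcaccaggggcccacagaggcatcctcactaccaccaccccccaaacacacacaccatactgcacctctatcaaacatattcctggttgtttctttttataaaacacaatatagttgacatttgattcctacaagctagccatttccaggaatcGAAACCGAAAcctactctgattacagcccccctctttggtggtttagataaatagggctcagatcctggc
Psmb9, chr17:34187331-34187580, - strand: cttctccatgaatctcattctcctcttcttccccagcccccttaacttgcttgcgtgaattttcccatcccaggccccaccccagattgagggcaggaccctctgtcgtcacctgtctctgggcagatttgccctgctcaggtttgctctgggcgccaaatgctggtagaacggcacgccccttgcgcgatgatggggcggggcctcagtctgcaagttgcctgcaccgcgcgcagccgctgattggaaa
Isg15, chr4:156200819-156201068, - strand: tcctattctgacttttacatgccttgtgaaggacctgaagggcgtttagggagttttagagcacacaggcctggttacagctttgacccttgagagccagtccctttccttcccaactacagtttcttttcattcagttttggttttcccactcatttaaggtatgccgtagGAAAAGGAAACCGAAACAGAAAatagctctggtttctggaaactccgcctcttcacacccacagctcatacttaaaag
Ifit1, chr19:34640639-34640888, + strand: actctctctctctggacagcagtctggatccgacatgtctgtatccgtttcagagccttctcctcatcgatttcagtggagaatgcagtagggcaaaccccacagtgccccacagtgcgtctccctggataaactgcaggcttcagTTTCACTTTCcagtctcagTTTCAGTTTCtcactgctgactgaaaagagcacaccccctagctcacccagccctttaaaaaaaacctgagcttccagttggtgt
The first match in Gbp3 began 45 bases before this start, and a further RefSeq start of Gbp3 had none. The first match began 70 bases before the start in Tgtp2, 78 bases in Isg15 and 104 bases in Ifit1. Psmb9 had no match in this window. Over the 3 lists of interferon and MHC class I genes described below, 50 of the 66 tested members had a RefSeq promoter in the table, and 20 of the 50 (40%) held a match. Among all 13466 genes tested, 9784 had a promoter there and 333 (3.4%) held one. Of the 11 list members whose LucOS vector tumours all lay above the Luc vector tumours, 7 had a promoter in the table and 2 of the 7 (28.6%) held a match. The letters are a description of the sequence and were not tested as binding sites.

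No gene differed between LucOS vector and Luc vector tumours after adjustment over all 13466 genes tested, and the lowest adjusted p was 0.113 (limma). That is 0% called in each direction. At an unadjusted p under 0.05, 425 genes (3.16%) were higher and 1493 (11.1%) were lower in LucOS vector tumours. In 285 genes (2.12%) every LucOS vector tumour lay above every Luc vector tumour, and in 1027 genes (7.63%) every one lay below. Levels are given as TPM, a share of all transcripts scaled by gene length, and every difference is the LucOS vector mean minus the Luc vector mean on the log2(TPM + 1) scale, which understates the change of genes at low TPM. The median difference of all genes was -0.25 on this scale, and 29% of genes had a difference above 0. After quantile normalization 681 genes lay wholly above and 1031 wholly below, and with each tumour centred on its own median 887 lay wholly above and 753 wholly below, so the surplus of lower genes depended on the scaling. The median of all genes became -0.03 after quantile normalization and 0.06 after centring, and the list medians below are on the unscaled values, where -0.25 is the level of all genes.

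The 7 tumours were alike in their overall profile. Genes at 1 TPM or more numbered 11478 to 12310 in LucOS vector and 11897 to 12547 in Luc vector tumours. Correlations between tumours ran from 0.944 to 0.972 within LucOS vector, from 0.960 to 0.981 within Luc vector and from 0.921 to 0.971 between them. The median log2(TPM + 1) of the tested genes was 2.74, 3.31 and 3.09 in LucOS vector tumours 1 to 3, against 3.37, 3.05, 3.46 and 3.58 in Luc vector tumours 1 to 4, and the lowest of these belonged to LucOS vector 1. The liver origin was visible in Alb, the albumin gene, at 1298 to 2722 TPM in LucOS vector and 1906 to 3268 TPM in Luc vector tumours. The gene table has no row for luciferase or for the antigens. The mouse Myc gene was at 1.38 to 2.4 TPM in LucOS vector and 1.07 to 2.89 TPM in Luc vector tumours, and Ctnnb1, the beta-catenin gene, at 184 to 288 TPM and 198 to 363 TPM in these groups. Aoah itself stood at 1.28, 1.59 and 3.43 TPM in LucOS vector tumours, against 18.6, 0.74, 54.8 and 0.89 TPM in Luc vector tumours. Luc vector 1 and 3 thus held more Aoah than the other vector tumours, while Aoah tumours held 284 to 931 TPM.

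**Figure D1:**
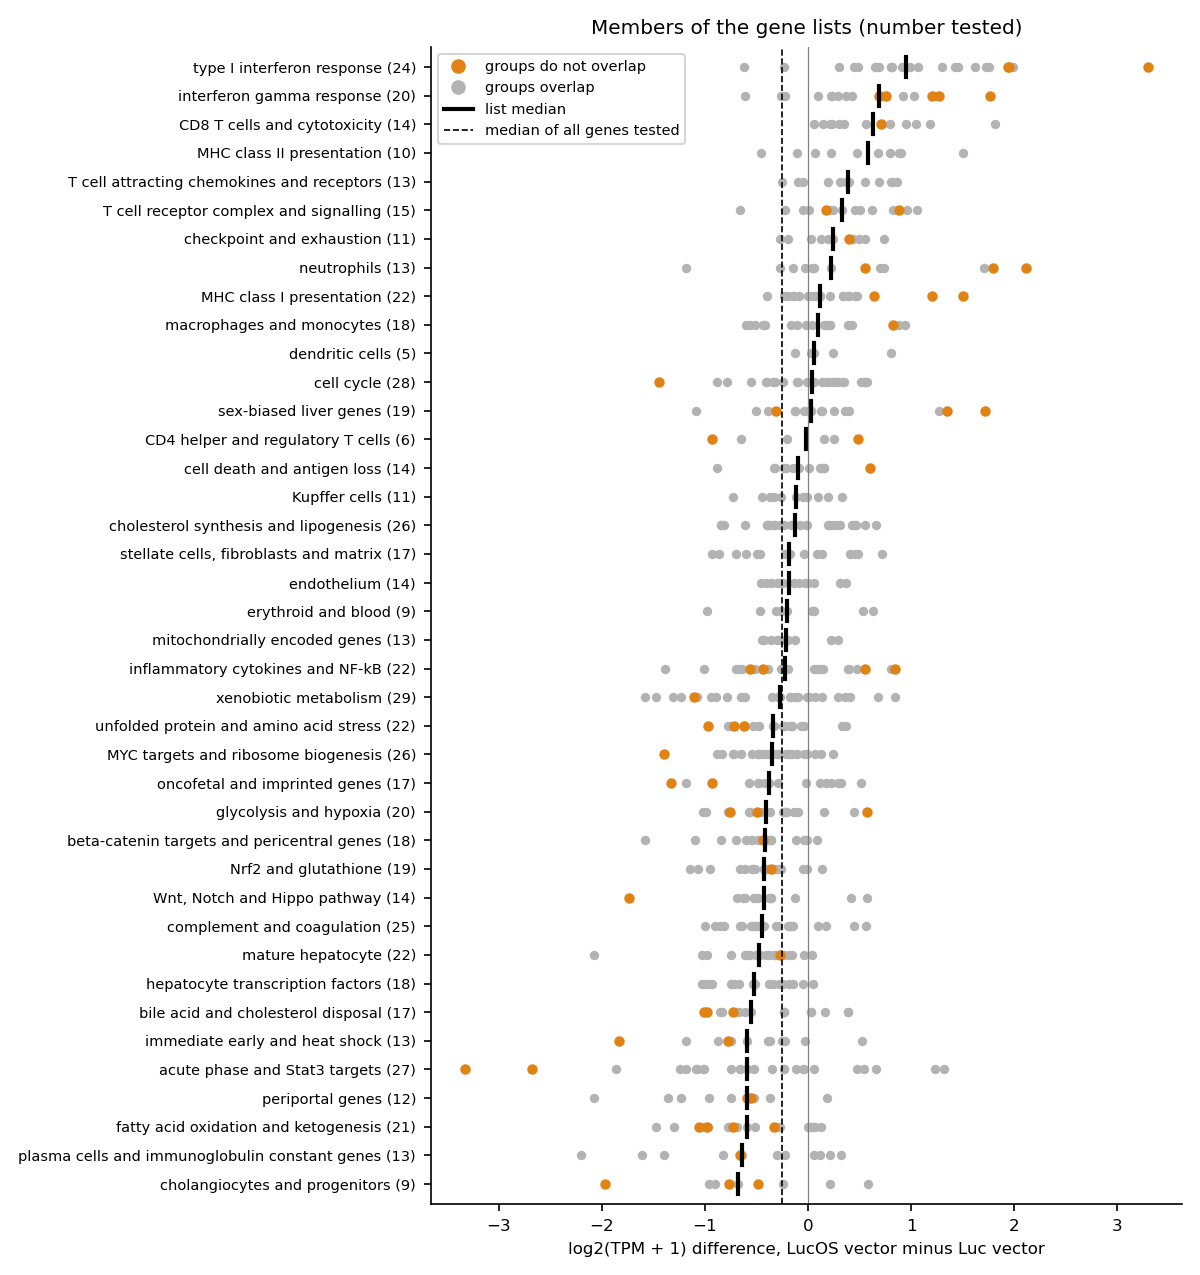
Difference in log2(TPM + 1), LucOS vector minus Luc vector, for every tested member of each gene list with 5 or more tested members. Orange points are genes whose 3 LucOS vector and 4 Luc vector tumours did not overlap, grey points are the others, bars are list medians and the dashed line is the median of all genes at -0.25. The type I interferon list has the highest median, 0.95, and the cholangiocyte and progenitor list the lowest, -0.68.

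In the class I pathway Psmb9, Psmb8 and Psme2 of the proteasome lay wholly above in LucOS vector tumours, while Psmb10 and the class I molecules overlapped. Psmb9 stood at 17.4, 26.5 and 50.4 TPM in LucOS vector tumours, against 13.7, 8.38, 7.74 and 9.01 TPM in Luc vector tumours. All LucOS vector tumours were above all Luc vector tumours, with a difference of 1.5 ± 0.35 (SE; adjusted p = 0.344). Psmb8, a further immunoproteasome subunit, stood at 34.4, 35.8 and 87.3 TPM in LucOS vector, against 25.4, 16.3, 20.9 and 19.03 TPM in Luc vector tumours, and did not overlap either (1.20 ± 0.31). Psmb10, the remaining catalytic subunit of the immunoproteasome, overlapped, at 212, 96.7 and 184 TPM in LucOS vector, against 174, 83.4, 93.7 and 114 TPM in Luc vector (0.48 ± 0.27). Psme2, a subunit of the proteasome activator PA28, was at 259.5 to 365 TPM in LucOS vector and 155 to 223 TPM in Luc vector tumours (0.64 ± 0.20). The heavy chain gene H2-K1 stood at 149.5, 567 and 361 TPM in LucOS vector tumours, against 314, 200.2, 502 and 294 TPM in Luc vector tumours. The difference was 0.01 ± 0.52, because LucOS vector 1 was the lowest of the 7 and LucOS vector 2 the highest. B2m, the light chain that every class I molecule needs, followed the same order, at 324, 1376 and 936 TPM in LucOS vector, against 504 to 1024 TPM in Luc vector tumours. Tap1, which pumps peptides into the endoplasmic reticulum, was at 2.74, 9.41 and 9.82 TPM in LucOS vector tumours, against 5.35, 2.80, 5.47 and 5.69 TPM in Luc vector tumours. Of the 22 class I genes tested, 3 lay wholly above and none wholly below, where 2.12% and 7.63% of all genes did. A difference above 0 was found in 16, where 29% of all genes had one, and none passed the adjusted p. The list median was 0.11, against -0.25 for all genes, and it ran from -0.12 without LucOS vector 2 to 0.54 without LucOS vector 1.

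MHC class II genes, which antigen-presenting cells use to show peptides to CD4 T cells, followed LucOS vector 3. H2-Aa stood at 66.5, 100.4 and 295 TPM in LucOS vector tumours, against 67.9, 21.6, 50.2 and 49.1 TPM in Luc vector tumours (1.5 ± 0.51, adjusted p = 0.344). H2-Ab1, its partner chain, stood at 60.6, 87.2 and 231 TPM in LucOS vector, against 80.9, 42.0, 62.7 and 51.7 TPM in Luc vector. LucOS vector 1 lay inside the range of the Luc vector tumours in both genes, and LucOS vector 2 and 3 above it. Of 10 class II genes tested, none had groups that did not overlap, where 2.12% of all genes lay wholly above and 7.63% wholly below. A difference above 0 was found in 8, where 29% of all genes had one. An unadjusted p under 0.05 was reached by 1, as higher, where 3.16% of all genes were. The list median of 0.58, against -0.25 for all genes, went down to 0.16 without LucOS vector 3 and up to 0.87 without LucOS vector 1.

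Genes induced by interferon gamma showed the same grading. Tgtp2, an interferon-induced GTPase, stood at 7.35, 23.6 and 50.5 TPM in LucOS vector tumours, against 6.01, 3.88, 6.25 and 6.00 TPM in Luc vector tumours. The groups did not overlap, but LucOS vector 1 was only just above them (1.77 ± 0.55, adjusted p = 0.344). Ifi47, a GTPase of the same family of cell-autonomous defence proteins, was at 31.9, 37.9 and 79.6 TPM in LucOS vector, against 21.3, 23.8, 14.7 and 18.6 TPM in Luc vector (1.21 ± 0.36). Gbp3, whose promoter is printed above, was at 1.83, 6.12 and 8.44 TPM in LucOS vector, against 1.69, 0.70, 1.66 and 1.69 TPM in Luc vector (1.27 ± 0.53). Gbp4 and Gbp8, further guanylate-binding proteins, did not overlap either, at differences of 0.69 ± 0.46 and 0.76 ± 0.43. Genes of the Gbp, Tgtp and H2 families are near copies of one another, so reads may have been split between members. Of 20 genes tested in the list, 5 lay wholly above and none wholly below, where 2.12% and 7.63% of all genes did. An unadjusted p under 0.05 was reached by 4, all of them higher, where 3.16% of all genes were, and none passed after adjustment. The list median was 0.69, against -0.25 for all genes, and it ran from 0.38 without LucOS vector 3 to 1.00 without LucOS vector 1.

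The type I interferon list had the highest median of the lists with 5 or more tested genes, and 2 of the 3 LucOS vector tumours carried it. Ifi27l2a, an interferon-inducible gene, stood at 30.15, 43.6 and 108 TPM in LucOS vector tumours, against 7.95, 4.07, 3.37 and 3.41 TPM in Luc vector tumours. Every LucOS vector tumour was above every Luc vector tumour, by a difference of 3.29 ± 0.55 (95% confidence interval 2.13 to 4.46, adjusted p = 0.113). Fitted on the 7 vector tumours alone, Ifi27l2a reached an adjusted p of 0.0459, and over all alternatives its adjusted p ran up to 0.554. Zbp1, a sensor of nucleic acid in Z conformation, was at 3.97, 20.8 and 27.6 TPM in LucOS vector tumours, against 2.95, 2.26, 3.34 and 2.64 TPM in Luc vector tumours (1.95 ± 0.55). Xaf1, a pro-apoptotic interferon-induced gene, was at 2.80, 25.8 and 15.2 TPM in LucOS vector, against 2.14, 2.45, 1.42 and 2.46 TPM in Luc vector (1.94 ± 0.65). In both genes LucOS vector 1 was close to the Luc vector tumours and the other LucOS vector tumours were far above them.

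In other members of the list LucOS vector 1 lay among or below the Luc vector tumours. Isg15 stood at 2.6, 35.8 and 25.9 TPM in LucOS vector tumours, against 3.47, 4.26, 3.16 and 3.65 TPM in Luc vector tumours. Irf7, the transcription factor that amplifies type I interferon, was at 1.09, 37.2 and 15.9 TPM in LucOS vector, against 2.86, 2.40, 4.08 and 3.34 TPM in Luc vector. Rtp4, an interferon-induced chaperone-like protein, was at 3.46, 46.0 and 29.0 TPM in LucOS vector, against 5.00, 1.97, 3.70 and 4.57 TPM in Luc vector. LucOS vector 1 was the lowest of the 7 tumours in Isg15 and Irf7. Ifit1 and Ifit3, both antiviral, and Ifi44 had the same order, with LucOS vector 1 at 0.42, 0.64 and 0.26 TPM, LucOS vector 2 at 6.57, 10.4 and 13.9 TPM, and no Luc vector tumour above 0.57, 1.25 and 0.75 TPM. Bst2, which tethers virus particles to the cell surface, was at 107, 285 and 223 TPM in LucOS vector, against 87.6 to 125 TPM in Luc vector tumours. Of 24 type I interferon genes tested, 22 had a difference above 0, where 29% of all genes did. The groups did not overlap in 3, all higher, where 2.12% of all genes lay wholly above. An unadjusted p under 0.05 was reached by 10, all higher, where 3.16% of all genes were, and none passed after adjustment. The list median of 0.95, against -0.25 for all genes, was 0.55 without LucOS vector 2 and 1.54 without LucOS vector 1. The summed TPM of the list was 197, 670 and 569 in LucOS vector tumours, against 155 to 216 in Luc vector tumours.

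**Figure D2:**
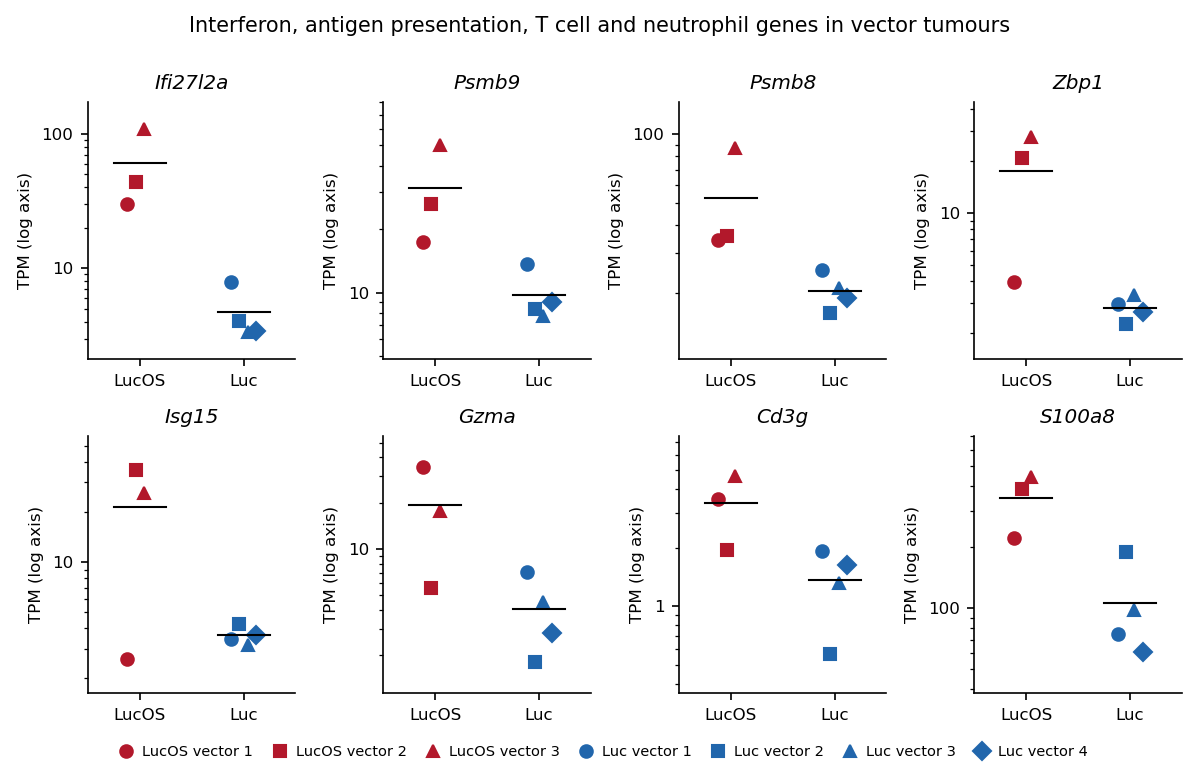
TPM on log axes for 8 immune genes in the 3 LucOS vector (left in each panel) and 4 Luc vector tumours (right), with symbols for single tumours and a bar at the group mean. LucOS vector 1 (circle) is near the Luc vector tumours in Zbp1 and Isg15 and the highest of all in Gzma.

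T cell and cytotoxicity genes were higher in LucOS vector 1 and 3 and low in LucOS vector 2, the reverse of the interferon order for tumours 1 and 2. Gzma, the granule protease granzyme A, stood at 34.6, 5.53 and 17.8 TPM in LucOS vector tumours, against 7.09, 1.80, 4.46 and 2.82 TPM in Luc vector tumours (1.81 ± 0.49, adjusted p = 0.344). Gzmb, granzyme B, was at 11.8, 2.14 and 6.62 TPM in LucOS vector, against 6.74, 1.20, 3.18 and 2.16 TPM in Luc vector. LucOS vector 2 lay inside the Luc vector range in both. Klrd1 and Klrc1, the chains CD94 and NKG2A of an inhibitory receptor on cytotoxic cells, were at 8.84 and 3.02 TPM in LucOS vector 1, against at most 1.54 and 0.84 TPM in any Luc vector tumour. The groups overlapped in both, with differences of 1.19 and 0.95 (limma, adjusted p = 0.344 for each). Klrk1, the activating receptor NKG2D, did not overlap, at 2.01, 1.89 and 3.09 TPM in LucOS vector tumours and 1.08, 0.58, 0.80 and 1.80 TPM in Luc vector tumours. Nkg7, a granule membrane protein, was highest in LucOS vector 3, at 3.77, 2.16 and 9.70 TPM in LucOS vector, against 1.31 to 2.23 TPM in Luc vector tumours. Cd8a, the CD8 co-receptor, was low throughout, at 0.92, 0.80 and 2.76 TPM in LucOS vector, against 1.01, 0.21, 0.46 and 0.80 TPM in Luc vector. All 14 cytotoxicity genes tested had a difference above 0, where 29% of all genes did. An unadjusted p under 0.05 was reached by 4, all higher, where 3.16% of all genes were. The groups did not overlap in 1, where 2.12% of all genes lay wholly above, and none passed after adjustment. The list median was 0.63, against -0.25 for all genes, and it was 0.34 without LucOS vector 3. In bulk tumours, fewer cells of a type and less RNA per cell cannot be told apart.

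The T cell receptor complex followed the cytotoxic genes. Cd3g stood at 3.54, 1.95 and 4.70 TPM in LucOS vector tumours, against 1.93, 0.57, 1.32 and 1.62 TPM in Luc vector tumours, and the groups did not overlap, though LucOS vector 2 and Luc vector 1 were almost equal (0.88 ± 0.37, adjusted p = 0.344). Cd3d was at 5.59, 0.84 and 3.43 TPM in LucOS vector, against 1.37, 0.66, 0.63 and 0.69 TPM in Luc vector (1.06 ± 0.37). Trbc2, a constant segment of the receptor beta chain, was at 10.9, 4.83 and 11.8 TPM in LucOS vector, against 6.41, 2.61, 3.75 and 3.69 TPM in Luc vector (0.96 ± 0.33). Cd5, a further T cell surface protein, did not overlap but stayed at or under 0.31 TPM. Of 15 genes tested, 2 lay wholly above, where 2.12% of all genes did. At an unadjusted p under 0.05, 3 were higher and 1 lower, where 3.16% and 11.1% of all genes were. The list median was 0.33, against -0.25 for all genes, with 0.20 without LucOS vector 1 and 0.61 without LucOS vector 2. Summed TPM of the list was 47.7, 17.1 and 45.4 in LucOS vector tumours, against 27.9, 12.9, 23.2 and 22.8 in Luc vector tumours. Foxp3, the factor of regulatory T cells, stayed at or under 0.11 TPM in LucOS vector and 0.08 TPM in Luc vector tumours, and Ncr1, a defining natural killer cell receptor, at or under 0.26 TPM and 0.13 TPM. Of 13 natural killer and gamma delta T cell genes listed, 10 had a row in the table and none of the 10 reached the minimum level for testing.

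**Figure D3:**
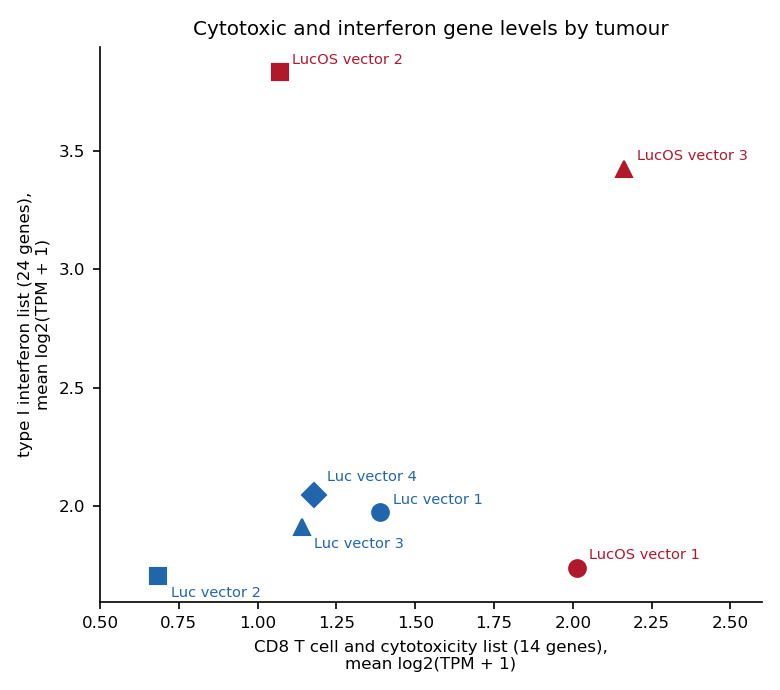
Mean log2(TPM + 1) of the type I interferon list (24 tested genes, vertical) against the CD8 T cell and cytotoxicity list (14 tested genes, horizontal) in the 7 vector tumours. The 4 Luc vector tumours lie low on both axes, LucOS vector 1 is high on the cytotoxic axis only, LucOS vector 2 on the interferon axis only and LucOS vector 3 on both.

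The plot of both lists by tumour showed how the 3 LucOS vector tumours differed among themselves. The mean log2(TPM + 1) of the cytotoxic list was 2.01, 1.07 and 2.16 in LucOS vector tumours 1 to 3, against 1.39, 0.69, 1.14 and 1.18 in Luc vector tumours 1 to 4. That of the type I interferon list was 1.74, 3.83 and 3.43 in LucOS vector, against 1.97, 1.70, 1.91 and 2.04 in Luc vector. LucOS vector 3 was thus high in both, and each of the other LucOS vector tumours was within or near the Luc vector range in 1 of them. Among the Luc vector tumours, Luc vector 2 was the lowest in both lists.

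Pdcd1, Ctla4 and Cxcl9 had their highest values in LucOS vector 3. Pdcd1, which encodes PD-1, stood at 0.49, 0.72 and 2.82 TPM in LucOS vector tumours, against 0.58, 0.16, 0.26 and 0.18 TPM in Luc vector tumours (0.74 ± 0.39). Ctla4 did not overlap, at 0.30, 0.32 and 0.58 TPM in LucOS vector, against 0.12, 0.07, 0 and 0.06 TPM in Luc vector, all of them low levels. Lag3 and Tigit, further inhibitory receptors, were at 1.34 and 1.73 TPM in LucOS vector 3 and at most 0.36 and 0.45 TPM in any Luc vector tumour. The groups overlapped in both, with differences of 0.56 and 0.50 (limma, adjusted p = 0.369 and 0.462). Tnfrsf18, the co-stimulatory receptor GITR from the CD4 T cell list, did not overlap, at 0.51 to 1.30 TPM in LucOS vector and 0.17 to 0.38 TPM in Luc vector tumours. Of 11 checkpoint genes tested, none reached an unadjusted p under 0.05, where 3.16% of all genes were higher and 11.1% lower. A difference above 0 was found in 9, where 29% of all genes had one, and 1 lay wholly above, where 2.12% did. The list median of 0.24, against -0.25 for all genes, was 0.02 without LucOS vector 3. The T cell attractant Cxcl9 was at 5.43, 9.90 and 24.3 TPM in LucOS vector tumours, against 7.56, 2.51, 7.03 and 8.19 TPM in Luc vector tumours, and Cxcl10 at 11.0, 7.24 and 15.2 TPM in LucOS vector, against 2.79 to 12.7 TPM in Luc vector. Among the receptors in the list, Cxcr6, found on tissue-resident T cells, was at 4.42, 0.48 and 3.40 TPM in LucOS vector, against 0.46 to 1.43 TPM in Luc vector (0.86 ± 0.37). None of the 13 chemokine genes tested had groups that did not overlap, where 2.12% of all genes lay wholly above and 7.63% wholly below. A difference above 0 was found in 10 of them, where 29% of all genes had one. An unadjusted p under 0.05 was reached by 2, both higher, where 3.16% of all genes were. Serpinb9, an inhibitor of granzyme B, was wholly above, at 2.45 to 3.61 TPM in LucOS vector and 1.24 to 2.10 TPM in Luc vector tumours (0.60 ± 0.26).

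Receptor sequences assembled from the same reads gave a count of T cell clones that did not depend on the gene table. TRB clones, of the receptor beta chain, numbered 71, 17 and 29 in LucOS vector tumours, against 12, 5, 10 and 4 in Luc vector tumours. It was the only measure of the 20 in which the groups did not overlap, with means of 39.0 ± 28.4 in LucOS vector and 7.75 ± 3.86 in Luc vector (SD, n = 3 and 4). Its two-sided exact permutation p was 0.0571, the smallest that 3 against 4 tumours can give, and 0.786 after adjustment over the 20 measures. Distinct TRB clonotypes numbered 58, 6 and 21 in LucOS vector, against 10, 4, 8 and 4 in Luc vector. LucOS vector 2, low in T cell genes, had 17 clones of only 6 clonotypes, and its count of clonotypes lay inside the Luc vector range. TRA clones, of the alpha chain, numbered 4, 7 and 20 in LucOS vector tumours, against 6, 1, 9 and 2 in Luc vector tumours, and overlapped (exact permutation p = 0.343). LucOS vector 1 thus had the most TRB clones and few TRA clones. In the Aoah tumours TRB clones numbered 81, 87 and 157 with LucOS and 135, 77, 91 and 112 with Luc. The clone numbers are not scaled to sequencing depth, which is unknown, and cover few molecules.

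**Figure D4:**
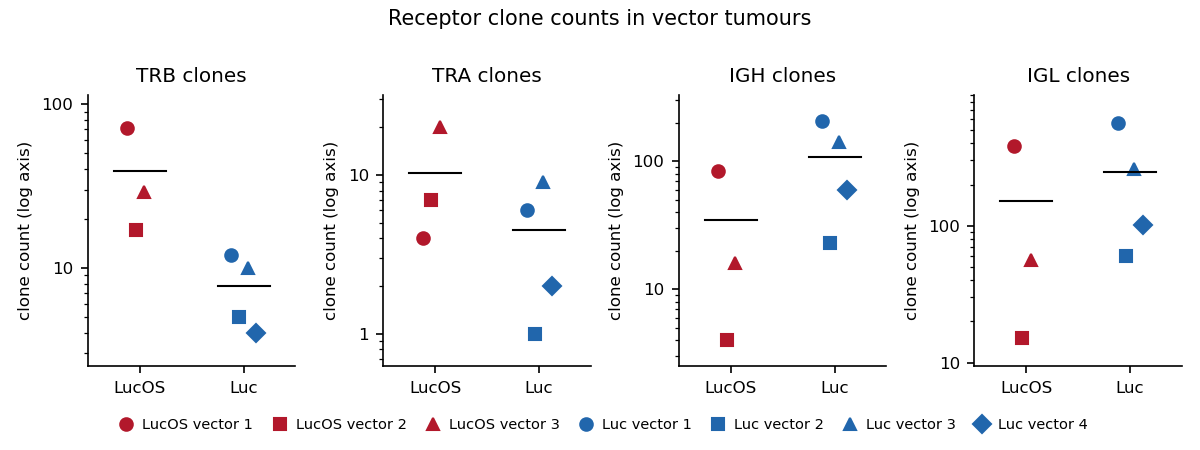
Clone counts on log axes for T cell receptor beta (TRB) and alpha (TRA) chains and for the columns IGH and IGL in the 3 LucOS vector (left) and 4 Luc vector tumours (right), with bars at group means. TRB is the panel without overlap, 17 to 71 in LucOS vector against 4 to 12 in Luc vector.

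Immunoglobulin genes and clones had a wide spread in both groups and overlapped. IGH clones, of the antibody heavy chain, numbered 84, 4 and 16 in LucOS vector tumours, against 205, 23, 140 and 59 in Luc vector tumours (exact permutation p = 0.286). The deposited IGL column, whose content is not stated, held 384, 15 and 56 clones in LucOS vector, against 564, 60, 259 and 101 in Luc vector (exact permutation p = 0.629). LucOS vector 2 had the fewest of both. In the gene table Igha, the IgA constant region, stood at 21.0, 1.6 and 1.03 TPM in LucOS vector tumours, against 67.7, 4.11, 40.4 and 16.4 TPM in Luc vector tumours (-2.20 ± 1.03, adjusted p = 0.344). Igkc, the kappa constant region, was at 115, 9.02 and 21.2 TPM in LucOS vector, against 212, 24.8, 104 and 62.5 TPM in Luc vector (-1.40 ± 0.82), and Jchain, which joins IgA and IgM units, at 25.2, 1.00 and 2.27 TPM in LucOS vector, against 26.8, 2.89, 10.4 and 6.62 TPM in Luc vector (-0.83 ± 0.89). The high values within Luc vector belonged to tumours 1 and 3, the tumours with more Aoah. Derl3, an endoplasmic reticulum protein of secretory cells, was the 1 member wholly below, at 0.33 to 0.62 TPM in LucOS vector, against 1.04 to 1.55 TPM in Luc vector. Of 13 plasma cell and immunoglobulin genes tested, 1 lay wholly below, where 7.63% of all genes did. An unadjusted p under 0.05 was reached by 2, both lower, where 11.1% of all genes were. The list median of -0.64, against -0.25 for all genes, became 0.03 without Luc vector 1 and 3, so its direction rested on them. Summed TPM of the list was 67.2 to 203 in LucOS vector and 76.6 to 383 in Luc vector tumours. Ms4a1, the mature B cell gene of CD20, was near 0, at or under 0.08 TPM in LucOS vector and 0.05 TPM in Luc vector tumours. Part of the IgG and IgA share measures came from as few as 4 IGH clones, and all of them overlapped.

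Among neutrophil genes, S100a8 and Camp were wholly above in LucOS vector tumours, and Lcn2 had a difference of the opposite sign. S100a8, a calcium-binding protein abundant in neutrophils, stood at 220.4, 386 and 440.1 TPM in LucOS vector tumours, against 75.0, 189, 97.5 and 61.0 TPM in Luc vector tumours, without overlap (1.79 ± 0.44, adjusted p = 0.344). Its partner S100a9 was at 164, 379 and 437 TPM in LucOS vector, against 74.1, 174, 99.6 and 54.4 TPM in Luc vector (1.71 ± 0.46). Camp, the antimicrobial peptide cathelicidin, was at 10.6, 20.3 and 10.8 TPM in LucOS vector, against 0.91, 8.26, 1.57 and 1.61 TPM in Luc vector, without overlap (2.11 ± 0.65). Luc vector 2 was the highest of its group in all 3 genes. Il1b, the cytokine interleukin 1 beta, was also wholly above, at 1.98 to 2.5 TPM in LucOS vector, against 0.85 to 1.61 TPM in Luc vector, as was Casp1, the protease that activates it, at 5.62 to 12.0 TPM in LucOS vector, against 3.32 to 4.03 TPM in Luc vector. Lcn2, which both neutrophils and stressed hepatocytes make, was at 179, 1462 and 555 TPM in LucOS vector, against 975, 1301, 1989 and 820 TPM in Luc vector (-1.19 ± 0.76). Ly6g, a neutrophil surface marker, was under the minimum level for testing. It was at 0.04, 0.79 and 0.2 TPM in LucOS vector tumours, against 0.69, 0, 0.53 and 0.07 TPM in Luc vector tumours. Cxcr2 and Mmp9 were also under that level and overlapped. Of 13 neutrophil genes tested, 3 lay wholly above and none below, where 2.12% and 7.63% of all genes did. A difference above 0 was found in 9 and one below 0 in 4, where 29% of all genes had one above 0. At an unadjusted p under 0.05, 4 were higher, where 3.16% of all genes were, and none passed after adjustment. The list median was 0.22, against -0.25 for all genes. It was -0.02 without LucOS vector 3 and 0.60 without LucOS vector 1. Of 18 macrophage and monocyte genes tested, 10 had a difference above 0 and 8 below, where 29% of all genes had one above 0. Their differences ran from -0.60 to 0.94. The 1 wholly above, where 2.12% of all genes were, was Ly6c2, of inflammatory monocytes. It was at 4.88 to 11.5 TPM in LucOS vector and 2.86 to 4.69 TPM in Luc vector tumours. Lyz2, lysozyme, was at 164, 81.9 and 239 TPM in LucOS vector, against 60.3 to 94.4 TPM in Luc vector. Summed TPM of the list was 2102, 6832 and 3568 in LucOS vector tumours, against 4432 to 5826 in Luc vector tumours. The list median was 0.10, against -0.25 for all genes, and it was -0.12 without LucOS vector 3. None of the 11 Kupffer cell genes, of the resident liver macrophages, and none of the 14 endothelial genes reached an unadjusted p under 0.05. Of all genes, 3.16% reached it as higher and 11.1% as lower, so few were to be found in lists of this size.

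Without regard to the lists, the genes with the smallest p for higher levels in LucOS vector tumours included Ifi27l2a, Ms4a6b, Serpina7, Selenow, Plac8, Psmb9, Etaa1os, AW112010, Spp2, S100a8 and BC147527. Of these, Ifi27l2a, Psmb9 and S100a8 are the list members already described above. Ms4a6b, a membrane protein of immune cells, stood at 22.3, 10.1 and 39.5 TPM in LucOS vector, against 4.91, 5.87, 3.46 and 3.85 TPM in Luc vector tumours (2.01 ± 0.38, adjusted p = 0.212). Plac8 was at 128, 82.5 and 275 TPM in LucOS vector, against 55.6, 66.1, 34.5 and 37.4 TPM in Luc vector (1.59 ± 0.36), and AW112010, a transcript of activated immune cells, at 128, 105 and 248 TPM in LucOS vector, against 44.9 to 68.5 TPM in Luc vector (1.43 ± 0.34). These immune genes shared the lower level in LucOS vector 2. Of liver secretory genes, Serpina7, which encodes thyroxine-binding globulin, was at 201, 387 and 178 TPM in LucOS vector, against 101, 110.5, 89.6 and 105 TPM in Luc vector (1.24 ± 0.24, adjusted p = 0.212). Selenow, selenoprotein W, was at 42.2 to 54.4 TPM in LucOS vector, against 24.2 to 31.7 TPM in Luc vector. Spp2, secreted phosphoprotein, was at 13.9, 10.5 and 26.9 TPM in LucOS vector tumours, and overlapped because Luc vector 1 had 10.9 TPM. Etaa1os, an antisense transcript whose reads may be shared with Etaa1, and BC147527 were low, at or under 2.48 and 3.96 TPM. The major urinary proteins Mup20 and Mup11, secreted by hepatocytes and male-biased, also lay wholly above. Mup20 was at 496, 972 and 451 TPM in LucOS vector tumours, against 174, 202, 270 and 323 TPM in Luc vector tumours (1.35 ± 0.37), and Mup11 at 17.9 to 39.1 TPM in LucOS vector, against 1.76 to 16.4 TPM in Luc vector (1.71 ± 0.53). Of the 19 sex-biased liver genes tested, 10 had a difference above 0 and 9 below, where 29% of all genes had one above 0. Among them 2 lay wholly above (Mup20 and Mup11) and 1 wholly below, where 2.12% and 7.63% of all genes did. Their median was 0.03, against -0.25 for all genes. Mup genes are near copies, so their reads may have been split. The labels give no sex for these animals. Xist, the X-inactivation RNA of female cells, stood at 16.4, 11.7 and 6.01 TPM in LucOS vector tumours, against 15.3, 8.04, 30.5 and 46.3 TPM in Luc vector tumours.

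The gene with the smallest p of all was lower in LucOS vector tumours. Sox9, a transcription factor of bile duct and liver progenitor cells, stood at 0.35, 1.57 and 0.77 TPM in LucOS vector tumours, against 3.24, 7.06, 9.85 and 6.09 TPM in Luc vector tumours. The groups were well apart, with a difference of -1.97 ± 0.31 (95% confidence interval -2.63 to -1.31, adjusted p = 0.113). Without Luc vector 1 the adjusted p was 0.0276, and over all alternatives it ran up to 0.316. Sox4, a related developmental factor, was at 0.36, 0.67 and 0.38 TPM in LucOS vector, against 1.01, 1.91, 1.44 and 1.65 TPM in Luc vector (-0.76 ± 0.20). Epcam, an epithelial adhesion protein of bile ducts and progenitors, was at 0.39 to 0.60 TPM in LucOS vector, against 0.74 to 1.27 TPM in Luc vector (-0.48 ± 0.18). Of 9 cholangiocyte and progenitor genes tested, 3 lay wholly below and none above, where 7.63% and 2.12% of all genes did. An unadjusted p under 0.05 was reached by 4, all lower, where 11.1% of all genes were. The list median was -0.68, against -0.25 for all genes, and stayed below 0 under both rescalings, at -0.59 after quantile normalization and -0.36 after centring. Krt19, a keratin of bile ducts, was under the minimum level for testing, at 0.38, 0.21 and 0.41 TPM in LucOS vector tumours, against 0.84, 1.55, 1.27 and 0.98 TPM in Luc vector tumours.

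**Figure D5:**
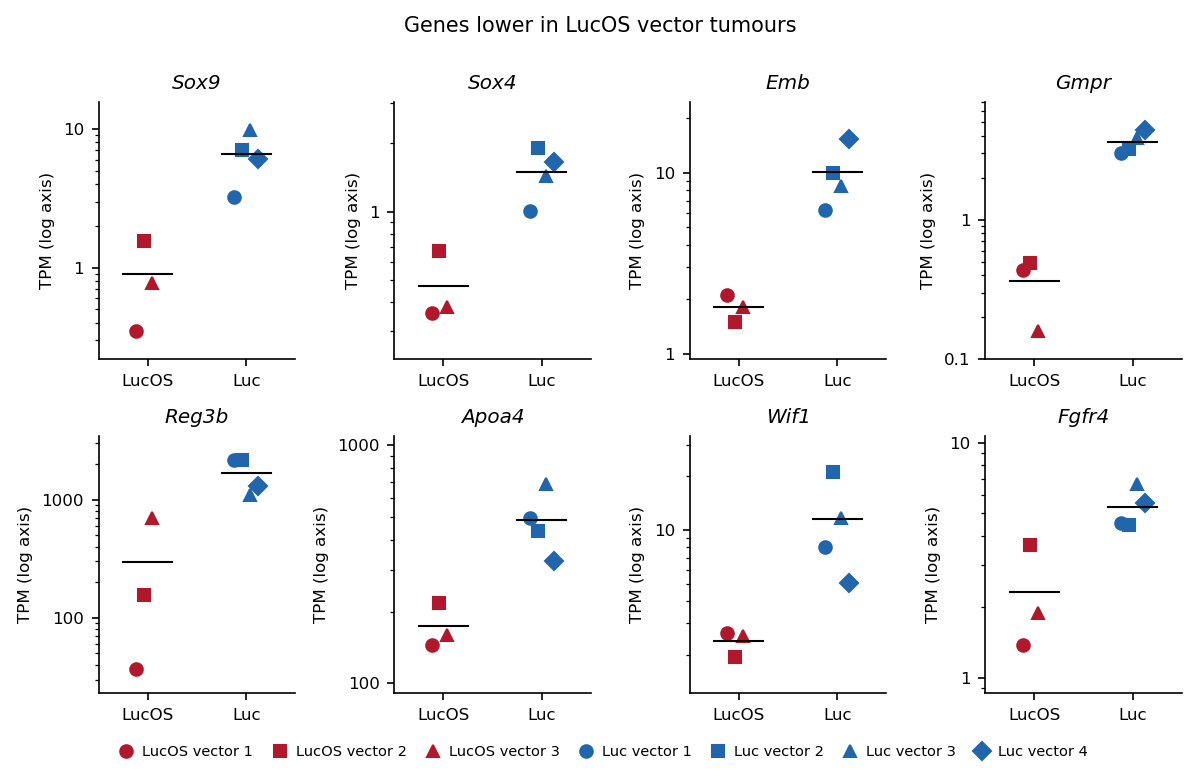
TPM on log axes for 8 genes that were lower in LucOS vector tumours (left in each panel) than in Luc vector tumours (right), with symbols for single tumours and a bar at the group mean. In all 8 the groups do not overlap, and Gmpr has the widest gap relative to its levels, at most 0.49 TPM in LucOS vector against at least 3.04 TPM in Luc vector.

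The other genes with the smallest p for lower levels were Aqp4, Adcy2, Apoa4, Gmpr, Emb, Morc1, Pcp4l1, Atoh8, Sgk1, Map3k21 and Trpm6, and in all of them the groups did not overlap. Gmpr, guanosine monophosphate reductase, stood at 0.44, 0.49 and 0.16 TPM in LucOS vector tumours, against 3.04, 3.24, 3.88 and 4.41 TPM in Luc vector tumours (-1.77 ± 0.34, adjusted p = 0.212). Emb, the membrane glycoprotein embigin, was at 2.11, 1.5 and 1.81 TPM in LucOS vector, against 6.24, 9.97, 8.44 and 15.4 TPM in Luc vector (-1.91 ± 0.38, adjusted p = 0.212). Apoa4, an apolipoprotein, was at 145, 217 and 160.02 TPM in LucOS vector, against 495, 436, 686 and 326 TPM in Luc vector (-1.44 ± 0.26, adjusted p = 0.178). The groups did not overlap in any of these genes. The water channel Aqp4 was at 0.34 to 0.67 TPM in LucOS vector, against 1.84 to 3.99 TPM in Luc vector (-1.42 ± 0.23, adjusted p = 0.113), and Adcy2, an adenylate cyclase, at 0.57 to 0.63 TPM in LucOS vector, against 1.65 to 3.00 TPM in Luc vector (-0.97 ± 0.17). Sgk1, a kinase induced by glucocorticoids, was at 9.74, 9.90 and 22.1 TPM in LucOS vector, against 24.6, 41.2, 35.9 and 82.9 TPM in Luc vector (-1.62 ± 0.35), and Atoh8, a transcription factor, at 1.29 to 3.86 TPM in LucOS vector, against 5.57 to 10.02 TPM in Luc vector (-1.55 ± 0.33). Pcp4l1 was at 5.93 to 8.77 TPM in LucOS vector, against 12.4 to 24.1 TPM in Luc vector, and Morc1, Map3k21 and Trpm6 stayed at or under 1.21, 0.31 and 1.09 TPM in LucOS vector tumours.

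Acute phase genes, which hepatocytes make under the control of interleukin 6 and Stat3, did not move as a block. Reg3b and Reg3g, secreted antibacterial lectins, were wholly below. Reg3b stood at 36.7, 155 and 698 TPM in LucOS vector tumours, against 2153, 2163, 1103 and 1296 TPM in Luc vector tumours (-3.33 ± 1.38, adjusted p = 0.344), and Reg3g at 14.6, 81.2 and 348 TPM in LucOS vector, against 600.1, 587, 392 and 416 TPM in Luc vector (-2.68 ± 1.19). LucOS vector 3 was closest to the Luc vector tumours in both, and the pair may share reads. Saa1, serum amyloid A, was at 855, 10189 and 1462 TPM in LucOS vector, against 878 to 1160 TPM in Luc vector, with LucOS vector 2 far above the rest (1.23 ± 0.93). A2m, alpha-2-macroglobulin, was at 19.99, 112 and 234 TPM in LucOS vector, against 206 to 362 TPM in Luc vector (-1.86 ± 0.91), and Hamp, the iron hormone hepcidin, at 223, 735 and 271 TPM in LucOS vector, against 512 to 1046 TPM in Luc vector (-1.08 ± 0.42). Of 27 genes tested, 2 lay wholly below, where 7.63% of all genes did. An unadjusted p under 0.05 was reached by 5, all lower, where 11.1% of all genes were. The list median of -0.59, against -0.25 for all genes, was -0.27 after centring and -0.05 without LucOS vector 1. Ier3, an early response gene, was wholly below, at 2.89, 5.82 and 4.03 TPM in LucOS vector, against 17.6, 13.9, 30.2 and 11.5 TPM in Luc vector (-1.83 ± 0.42). Icam1 and Tnfaip3, both targets of NF-kB, were also wholly below, though by narrow margins, at 15.7 to 23.1 TPM in LucOS vector, against 23.8 to 33.8 TPM in Luc vector and at 0.55 to 1.80 TPM in LucOS vector, against 1.88 to 2.56 TPM in Luc vector. The inflammatory cytokine and NF-kB list was divided. Among its 22 tested genes 2 lay wholly above and 2 wholly below, where 2.12% and 7.63% of all genes did. A difference above 0 was found in 10, where 29% of all genes had one. An unadjusted p under 0.05 was reached by 3, all higher, where 3.16% of all genes were. The list median was -0.22, against -0.25 for all genes.

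The fatty acid oxidation, periportal, bile acid and mature hepatocyte lists had medians below the -0.25 of all genes. The median of cholesterol synthesis and lipogenesis was above it, at -0.12, and that of xenobiotic metabolism was close to it, at -0.27. LucOS vector 2 was the LucOS vector tumour closest to Luc vector in most of the genes named here. Hadhb, of mitochondrial fatty acid oxidation, was at 113, 209 and 179.8 TPM in LucOS vector, against 225 to 299.6 TPM in Luc vector (-0.72 ± 0.24), and Cyp4a10, of omega oxidation, at 0.68 to 2.05 TPM in LucOS vector, against 2.14 to 7.16 TPM in Luc vector. Pdk4, which restrains glucose oxidation, was at 3.35, 8.19 and 4.45 TPM in LucOS vector, against 5.75 to 20.9 TPM in Luc vector. Of 21 fatty acid oxidation and ketogenesis genes tested, 4 lay wholly below and none above, where 7.63% and 2.12% of all genes did. An unadjusted p under 0.05 was reached by 9, all lower, where 11.1% of all genes were. The median was -0.59, against -0.25 for all genes, and -0.27 after centring. Pck1, of gluconeogenesis, was at 6.24, 64.0 and 13.1 TPM in LucOS vector tumours, against 56.0 to 117 TPM in Luc vector tumours (-2.07 ± 0.70). Gls2, the liver glutaminase, was wholly below, at 34.0 to 38.3 TPM in LucOS vector, against 44.3 to 76.9 TPM in Luc vector. Among 12 periportal genes 2 lay wholly below, where 7.63% of all genes did. An unadjusted p under 0.05 was reached by 6, all lower, where 11.1% of all genes were. The periportal median was -0.59, against -0.25 for all genes, and -0.27 after centring. In bile acid control, Fgfr4 and Klb, the receptor pair for the ileal hormone FGF15, and Nr0b2, the repressor SHP, were wholly below. Fgfr4 was at 1.37, 3.66 and 1.89 TPM in LucOS vector, against 4.46 to 6.68 TPM in Luc vector (-0.98 ± 0.31), Klb at 5.24 to 7.65 TPM in LucOS vector, against 8.82 to 16.4 TPM in Luc vector (-0.73 ± 0.33), and Nr0b2 at 7.47 to 15.6 TPM in LucOS vector, against 17.3 to 30.9 TPM in Luc vector (-1.01 ± 0.37). The bile acid list had a median of -0.56 over 17 genes, against -0.25 for all genes, with 3 wholly below, where 7.63% of all genes were. Its median was -0.24 after centring and -0.12 without LucOS vector 1. Cyp2e1, an ethanol-oxidising enzyme, was at 104, 1110 and 169 TPM in LucOS vector, against 571 to 1079 TPM in Luc vector (-1.58 ± 0.62). Hnf4a, the hepatocyte master regulator, overlapped, at 32.3, 104 and 54.5 TPM in LucOS vector, against 64.5 to 118 TPM in Luc vector. Of 22 mature hepatocyte genes 1 had a difference above 0, where 29% of all genes did, and 1 lay wholly below, where 7.63% of all genes did. Their median of -0.48, against -0.25 for all genes, was -0.16 after centring, -0.14 without LucOS vector 1 and -0.83 without LucOS vector 2.

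Among targets of beta-catenin and of MYC, 2 genes lay wholly below and none wholly above. Of 18 beta-catenin target and pericentral genes tested, 4 reached an unadjusted p under 0.05, all lower, where 11.1% of all genes were. Among the same genes 1, Rnf43, lay wholly below, where 7.63% of all genes did. The list median was -0.41, against -0.25 for all genes, and -0.10 after centring. Rnf43, a feedback inhibitor of Wnt receptors, was at 1.85 to 2.06 TPM in LucOS vector and 2.36 to 3.92 TPM in Luc vector tumours (-0.43 ± 0.21). Notum, a secreted Wnt inhibitor, was at 0.98, 6.03 and 1.02 TPM in LucOS vector, against 4.32 to 6.41 TPM in Luc vector, and Tbx3 at 1.88, 5.90 and 2.28 TPM in LucOS vector, against 4.46 to 10.7 TPM in Luc vector, with LucOS vector 2 inside the Luc vector range. Glul, glutamine synthetase, was at 66.6, 145 and 147.9 TPM in LucOS vector, against 178, 79.8, 189 and 167 TPM in Luc vector, and Axin2 at 0.36, 1.73 and 1.01 TPM in LucOS vector, against 0.80 to 3.29 TPM in Luc vector. Wif1, a secreted Wnt inhibitor from the Wnt, Notch and Hippo list, was wholly below, at 2.65, 1.94 and 2.53 TPM in LucOS vector, against 8.05, 21.1, 11.7 and 5.06 TPM in Luc vector (-1.73 ± 0.41). The 26 MYC target and ribosome biogenesis genes had a median of -0.35, against -0.25 for all genes, and -0.03 after centring. Among them 1 reached an unadjusted p under 0.05, as lower, where 11.1% of all genes did. Also, 1 gene lay wholly below, where 7.63% of all genes did. That gene was the cyclin Ccnd2, at 1.12, 1.58 and 0.94 TPM in LucOS vector tumours, against 21.3, 1.68, 2.06 and 5.14 TPM in Luc vector tumours. Ccnd1, cyclin D1, was wholly below at 6.76, 10.2 and 7.14 TPM in LucOS vector, against 22.6, 13.6, 29.96 and 31.5 TPM in Luc vector (-1.45 ± 0.38), while the 28 cell cycle genes had a median of 0.04 and Mki67, a proliferation marker, overlapped at 10.4 to 14.5 TPM in LucOS vector and 5.59 to 25.5 TPM in Luc vector. Of the oncofetal genes, Gpc3, a glypican of liver cancer, was at 153, 116 and 199 TPM in LucOS vector, against 353, 235, 358 and 237 TPM in Luc vector, and Peg10, an imprinted gene, at 0.61 to 1.37 TPM in LucOS vector, against 1.49 to 10.4 TPM in Luc vector, both wholly below. Afp, alpha-fetoprotein, overlapped at 1325, 704 and 2225 TPM in LucOS vector, against 622 to 1280 TPM in Luc vector, and H19 at 2531, 9519 and 4351 TPM in LucOS vector, against 7286 to 17135 TPM in Luc vector. In the unfolded protein and amino acid stress list of 22 tested genes, Xbp1, Trib3 and Chac1 lay wholly below, where 7.63% of all genes did. An unadjusted p under 0.05 was reached by 6, all lower, where 11.1% of all genes were. The median was -0.34, against -0.25 for all genes, and -0.02 after centring. Xbp1, the splicing-activated factor of this response, was at 57.0, 129.5 and 105 TPM in LucOS vector, against 140.1 to 177 TPM in Luc vector (-0.72 ± 0.30), Trib3 at 4.37 to 6.14 TPM in LucOS vector, against 7.11 to 10.5 TPM in Luc vector, and Chac1 at 0.75 to 1.31 TPM in LucOS vector, against 1.53 to 3.51 TPM in Luc vector. Col1a1, collagen of stellate cells and fibroblasts, was at 1.43 to 2.40 TPM in LucOS vector, against 2.29 to 6.01 TPM in Luc vector.

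The same antigen contrast could be set beside its counterpart in tumours with the Aoah plasmid, which share no sample with the vector tumours. Between LucOS Aoah and Luc Aoah tumours 11 genes (0.0817%) were called lower and none (0%) higher at an adjusted p under 0.05. At an unadjusted p under 0.05, 2.73% of genes were higher and 4.28% lower there. In this contrast 296 genes (2.2%) lay wholly above and 711 (5.28%) wholly below. Of the 285 genes wholly above in vector tumours, 163 (57.2%) had a difference above 0 in Aoah tumours, against 48.8% of all genes, 21 (7.37%) were wholly above there as well, against 2.2% of all genes, and 22 (7.72%) were wholly below there, against 5.28% of all genes. Of the 1027 wholly below, 669 (65.1%) had a difference below 0 in Aoah tumours, against 51.1% of all genes, 62 (6.04%) were wholly below there, and 2 (0.195%) were wholly above there. These shares are descriptions, since genes are not independent of one another.

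Some genes did alike in both settings. Psmb9 stood at 99.9, 88.5 and 187 TPM in LucOS Aoah tumours, against 29.3, 39.2, 42.0 and 56.9 TPM in Luc Aoah tumours, a difference of 1.51 where vector tumours had 1.5. S100a8 was at 120, 221 and 58.6 TPM in LucOS Aoah, against 47.6, 25.9, 35.01 and 22.9 TPM in Luc Aoah (1.85, with 1.79 in vector tumours), and Tgtp2 at 93.0, 67.5 and 227 TPM in LucOS Aoah, against 17.9, 22.99, 24.9 and 63.5 TPM in Luc Aoah (1.95, with 1.77 in vector tumours). None of these passed the adjusted p in either setting, and in all 3 both settings had groups without overlap. Emb was at 3.04, 1.59 and 3.13 TPM in LucOS Aoah tumours, against 11.2, 39.7, 13.4 and 13.9 TPM in Luc Aoah tumours, and passed there (-2.36, adjusted p = 0.0369). Gmpr was at 0.25, 0.48 and 0.32 TPM in LucOS Aoah, against 1.81, 8.29, 1.62 and 2.51 TPM in Luc Aoah (-1.55, adjusted p = 0.153). The levels of Emb and Gmpr were thus low in all 6 LucOS tumours and higher in all 8 Luc tumours.

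Other genes did not show the difference in Aoah tumours. Sox9 was low in both Aoah groups, at 0.24, 0.47 and 0.56 TPM in LucOS Aoah and 0.17, 1.00, 0.18 and 0.31 TPM in Luc Aoah tumours, so the higher Sox9 belonged to the Luc vector tumours alone among the 4 groups. Ifi27l2a was high in both, at 31.7, 30.7 and 177 TPM in LucOS Aoah and 42.7, 23.7, 46.0 and 37.8 TPM in Luc Aoah tumours (0.60). Serpina7 had the opposite order, at 66.8, 75.2 and 73.4 TPM in LucOS Aoah, against 79.7 to 125 TPM in Luc Aoah (-0.58, with 1.24 in vector tumours). The test of the difference between both antigen effects did not pass for any of these 3, with adjusted p of 0.443 for Sox9 and Ifi27l2a and 0.350 for Serpina7. Cxcl9 and H2-Aa did not overlap in Aoah tumours. Cxcl9 was at 58.5 to 330 TPM in LucOS Aoah, against 20.3 to 46.9 TPM in Luc Aoah, and H2-Aa at 312 to 1102 TPM in LucOS Aoah, against 135 to 245 TPM in Luc Aoah.

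The difference between both antigen effects passed for 1 gene of 13466 (0.00743%). Mup13, a major urinary protein gene, stood at 2.65, 2.99 and 0.39 TPM in LucOS vector tumours, against 1.40, 0, 0.14 and 1.71 TPM in Luc vector tumours (0.72, adjusted p = 0.390). In Aoah tumours it stood at 0.67, 0.92 and 0.29 TPM with LucOS, against 14.4, 42.6, 53.5 and 27.9 TPM with Luc (-4.32, adjusted p = 0.00303). The difference of the effects was 5.05 (adjusted p = 0.0315). No gene passed with a pseudocount of 0.1 (lowest adjusted p = 0.407), after centring (0.0541) or with a replicate block (0.272), and Mup13 passed in 3 of the 14 fits that left out 1 tumour each. The Luc Aoah tumours were thus the only group with more than 3 TPM of Mup13, and reads may be shared with other Mup genes. Mup3 had the next smallest p in that direction, at 186, 222 and 97.3 TPM in LucOS vector and 39.5 to 112 TPM in Luc vector tumours, and at 293 to 663 TPM in LucOS Aoah and 941 to 1654 TPM in Luc Aoah tumours (difference of effects 2.94, adjusted p = 0.350). Nat8f1, an acetyltransferase, was also higher in LucOS vector, at 77.0 to 81.1 TPM against 42.5 to 64.9 TPM in Luc vector, and lower in LucOS Aoah, at 80.0 to 90.2 TPM against 118 to 175 TPM in Luc Aoah (1.28, adjusted p = 0.372). In the other direction, Ighg2c, the IgG2c constant region, was at 3.02, 0.46 and 2.79 TPM in LucOS vector tumours, against 2.95 to 13.6 TPM in Luc vector tumours, and at 36.3 to 47.7 TPM in LucOS Aoah, against 11.7 to 31.9 TPM in Luc Aoah tumours (-2.81, adjusted p = 0.443). Akap13 and Bicc1 had differences of effects of -1.85 and -1.76 and did not pass either.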

How the data were processed

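Bulk RNA of 14 tumours was measured, and 7 of them, 3 LucOS vector and 4 Luc vector, make up the comparison. Per the labels' protocols, polyadenylated RNA was selected, and the strandedness of the libraries is ambiguous, so genes that overlap on opposite strands cannot be separated with certainty. RSEM and build mm39 come from the submitters' processing notes, without versions, and an aligner is not given in the sources consulted. The expression values, deposited by the authors, are log2(TPM + 1) for 29923 gene symbols. Depth cannot be recovered from TPM, and no counting interval is given. The authors also deposited 20 receptor measures per tumour in a table named after MiXCR, unscaled to depth. TRA entropy and clonality were empty for Luc vector 2, and isotype shares written as tiny numbers were read as 0. The authors' tables of Aoah comparisons were not used here.

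Genes at 1 TPM or more in at least 3 of the 14 tumours, 13466 of them, were fitted on that log2 scale by limma 3.58.1 (R 4.3.3), with 1 mean per group over all 14 tumours, variances that followed the expression trend, and Benjamini-Hochberg adjustment over all genes at 0.05. The shared fit leaves 10 residual degrees of freedom. Contrasts were LucOS minus Luc among vector tumours, the same among Aoah tumours, and their difference. This fit gave each adjusted p in the text. Values after ± are its standard errors unless SD is stated. Repertoire measures were compared by two-sided exact permutation tests with scipy 1.17.1 over the 35 arrangements of 3 against 4 tumours. Named genes were the 12 with the smallest p in each direction among vector tumours, leaving out predicted genes and receptor segments, since none passed 0.05, the delivered genes, up to 5 per direction for the difference of effects, and members of 43 gene lists with 774 entries. Not every gene chosen in this way is reported here. The comparison and the lists were chosen with earlier results of these data known, so no list got a test. Promoters came from RefSeq on GRCm38.p6 and were matched by symbol. The fit was tested on simulated data. Alternatives were another pseudocount, no filter, only the groups compared, other scalings, plain limma, a replicate block, each tumour left out, and Luc vector 1 and 3 left out together.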

Additional observations from a re-analysis of the deposited data

Results flagged for a closer look

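Mup13 was the 1 gene in which the antigen effect differed between vector and Aoah tumours by a test of that difference, at 5.05 on the log2(TPM + 1) scale (limma, adjusted p = 0.0315). The value rested on the Luc Aoah tumours, at 14.4 to 53.5 TPM. No gene passed with a pseudocount of 0.1, after centring or with a replicate block, and Mup13 passed in 3 of the 14 fits that left out 1 tumour each.

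In 178 sets of 4 tumours, 11 held 1 tumour far from the other 3, or 6.18%, where chance gives about 1 in 20, or 8.9 sets, so the number is near that of chance. The size of the gap is given as a share of the whole range of the 4 values. Luc vector 2 was the low tumour in 6 of them: Gbp3 (0.976, at 0.70 TPM against 1.66 to 1.69 TPM), Tgtp2 (0.911, at 3.88 TPM against 6.00 to 6.25 TPM), Tap1 (0.908, at 2.80 TPM against 5.35 to 5.69 TPM), Chac1 (0.901), Cxcl9 (0.860, at 2.51 TPM against 7.03 to 8.19 TPM) and Glul (0.857). Luc vector 1 was the high tumour in Cd3d (0.903, at 1.37 TPM against 0.63 to 0.69 TPM) and in the IgM share of IGH (1, the others being 0). Luc vector 3 was low in Epcam (0.882, at 0.74 TPM against 1.20 to 1.27 TPM). Luc Aoah 2 was high in Emb (0.835, at 39.7 TPM against 11.2 to 13.9 TPM) and in Akap13 (0.839, at 2.06 TPM against 0.81 to 0.97 TPM). What set these tumours apart was not tested.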

How the results depend on the processing

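TPM hides depth, groups of 3 and 4 are small, and 1 tumour moved many list medians, as given beside them. Genes called between LucOS vector and Luc vector numbered 0, but 4 without a filter on low values, 2 when only these groups were fitted (Ifi27l2a and Gmpr) and 0 to 1 when a tumour was left out. Genes wholly above numbered 285, but 446 without a filter, 681 after quantile normalization, 887 after centring, 538 without Luc vector 1 and 3, and 341 to 1293 with a tumour left out. Genes wholly below numbered 1027, but 1570 without Luc vector 1 and 3 and 1111 to 4262 with a tumour left out. Leaving out LucOS vector 2 gave 1293 above and 4262 below, leaving out LucOS vector 1 gave 726 above, and leaving out Luc vector 2 gave 475 above and 4167 below. Smaller groups are apart more often by construction. The 11 calls among Aoah tumours were 4 with a pseudocount of 0.1, 6 without a filter, 2 with only these groups, 27 after quantile normalization and 1 to 10 with a tumour left out. The 1 call for the difference of effects was 0 with a pseudocount of 0.1, 2 without a filter, 0 after centring and 0 to 2 with a tumour left out. The cause was not tested.

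Same-numbered vector tumours deviated with correlations of 0.198, -0.288 and -0.233, and differently numbered ones with -0.329 to 0.462. Values so few and so spread cannot decide whether the numbers pair the tumours. With a replicate block the calls were 0 in vector tumours, 0 in Aoah tumours and 0 for the difference of effects.

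Of 137 genes followed, 7 changed sign somewhere. Myc became 0.060 after quantile normalization and 0.14 after centring, and Alb 0.0011 after centring. With a tumour left out, H2-K1 ran from -0.42 to 0.54, B2m from -0.33 to 0.71, and Glul from -0.65 to 0.0086. H2-K1 and B2m were lowest without LucOS vector 2. Without Luc vector 1 and 3, Aoah became 0.71 and Jchain 0.029. With 3 against 4 tumours the smallest exact p is 0.0571, so no repertoire measure could pass 0.05 and these tests say nothing about stability.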

Other observations

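Of 26 cholesterol synthesis genes 10 had a difference above 0, where 29% of all genes did, and the median was -0.12, against -0.25 for all genes. Msmo1, a sterol oxidase, stood at 37.7, 103 and 60.7 TPM in LucOS vector tumours, against 34.2, 33.8, 41.3 and 47.8 TPM in Luc vector tumours, and Idi1, an isomerase of the same pathway, at 95.4, 171.5 and 143 TPM in LucOS vector, against 93.1, 83.0, 75.4 and 113 TPM in Luc vector. Both overlapped, with the highest value in LucOS vector 2. Both reached an unadjusted p under 0.05 as the only ones of 26 genes in their list, where 3.16% of all genes were higher. Neither passed after adjustment (limma, adjusted p = 0.344).

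Egln3, an oxygen-sensing prolyl hydroxylase that hypoxia induces, was wholly below, at 16.6, 20.4 and 22.8 TPM in LucOS vector tumours, against 24.5, 29.4, 40.1 and 46.6 TPM in Luc vector tumours (-0.76 ± 0.27). Aldoa, an aldolase of glycolysis, was wholly below as well, at 17.1 to 19.4 TPM in LucOS vector, against 23.2 to 29.4 TPM in Luc vector. Ankrd37, also induced by hypoxia, was wholly above, at 4.93 to 7.39 TPM in LucOS vector, against 2.96 to 4.64 TPM in Luc vector. Cyp2c37, a liver cytochrome P450, was at 23.7, 25.7 and 23.3 TPM in LucOS vector, against 53.5, 74.9, 53.7 and 37.9 TPM in Luc vector (-1.11 ± 0.33), with little spread within LucOS vector.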
